A study of Mus musculus with 27 samples.

Results

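Disulfiram (DSF), an anti-alcoholism drug, was given at 1 µM to mouse splenic B cells cultured for 3 h with IL-4+anti-CD40, and the mRNA of these cells was compared with that of vehicle-treated (DMSO) cells under the same stimulus. The comparison rests on 8 of the 27 RNA-seq samples of the study, 4 DSF and 4 vehicle libraries of its first experiment, taken by their labels and described over all genes outside pyrimidine metabolism. The B cells came from WT C57BL6 spleens by negative selection, were neither transgenic nor infected as far as the labels say, and differed between the groups only in DSF. The study describes the 4 samples of a group as biologically independent, and as treated with DSF before the stimulus, without saying whether they came from separate mice or whether equally numbered libraries share a mouse. The p-values measure the spread between these samples. The age and sex of the mice that gave the B cells are not given in the sources used here. From the same experiment, 8 further libraries (LPS with and without 1 µM DSF, 4 each, LPS being the T cell-independent stimulus) served for comparison, and so did 1 DSF and 1 vehicle library with IL-4+anti-CD40 from the second experiment of the series.

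IL-4 acts on B cells through STAT6, and CD40, the receptor for the CD40 ligand of helper T cells, acts through TRAF adaptors and NF-κB. Given together they imitate T cell help: the resting cell turns on growth metabolism, survival genes of the BCL2 family, costimulatory surface molecules and germline transcripts of the switched heavy chains. DSF inhibits aldehyde dehydrogenases, reacts with thiols, and through its metabolite diethyldithiocarbamate binds copper and zinc. Cells answer misfolded protein through HSF1, which induces chaperones, electrophiles through NRF2, which induces antioxidant and iron-handling genes, and free metal through MTF1, which induces metallothioneins.

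The 8 libraries held 17804851 to 23632992 counts, with 1.52% to 2.08% of them from mitochondrially encoded genes. Levels are given below as CPM (counts scaled to a common library size) after TMM normalization, means with the SD over 4 libraries, and effects as log2 fold changes (DSF minus vehicle) with the SE of the edgeR quasi-likelihood fit and its p-value adjusted by Benjamini-Hochberg over the 14275 genes tested. B cell markers were high: the summed level of 10 B cell markers was 8147 to 8610 CPM with vehicle and 8273 to 8523 CPM with DSF, while Cd3e and Cd3g of T cells stayed at or below 0.685 CPM. Defining pairs of other cells reached more: Csf1r and Adgre1 of myeloid cells up to 67.5 CPM, Sdc1 and Jchain of plasma cells up to 165 CPM. Those of dendritic cells, neutrophils, NK cells and erythroid cells stayed at or below 6.945 CPM. Markers of other cells moved with the groups to a small extent. The summed level of 14 myeloid markers was 362 to 408 CPM with vehicle and 450 to 542 CPM with DSF, that of 9 plasma cell markers 514 to 557 and 670 to 709 CPM, that of 16 T cell markers 36.2 to 39.0 and 44.7 to 46.3 CPM, and that of 9 erythroid markers 1.95 to 2.67 and 3.13 to 4.63 CPM. Sums for dendritic (8 markers, 117 to 129 and 124 to 131 CPM) and NK cells (10 markers, 5.72 to 6.85 and 5.68 to 6.34 CPM) overlapped, and those of 10 neutrophil markers were 10.52 to 13.48 and 13.7 to 15.64 CPM. None of these markers was at 0 in all 8 libraries. The part of such cells in the results was not tested, and in bulk RNA fewer cells of a type and less RNA per cell cannot be told apart.

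The vehicle libraries were not alike. Vehicle libraries 3 and 4 lay between vehicle libraries 1 and 2 and the DSF libraries: on the first principal component, which held 81.8% of the variance, the vehicle libraries were at -48.86, -48.32, -28.98 and -17.58 and the DSF libraries between 32.21 and 38.36. The summed level of the 20 HSF1 chaperones was 10010, 10610, 12610 and 15680 CPM in vehicle libraries 1 to 4 and 37280 to 42030 CPM in the DSF libraries, and that of 24 NRF2 targets was 3295, 3473, 5470 and 6809 CPM against 16980 to 19460 CPM. For the 1369 genes that rose by 2-fold or more, the median gene in vehicle library 3 had gone 13.6% of the way from vehicle libraries 1 and 2 to the DSF mean, and 24.4% in vehicle library 4. For the 705 genes lowered by 2-fold or more the medians were 22.9% and 32.7%. The labels give no batch, date or other handling that separates these libraries. The DSF effect was therefore also computed against vehicle libraries 1 and 2 alone. That log2 fold change is called the value "with vehicle 1 and 2". It is given for the genes raised most (for Hfm1 as a bound) and for some of those lowered most. Other DSF effects printed below have it at least where the fold moved by over 1.5 times.

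DSF changed most of the genes tested. Of 14275 genes, 4301 (30.1%) rose and 4514 (31.6%) fell, and all 4 DSF libraries lay above all 4 vehicle libraries for 3941 genes (27.6%) and below them for 4238 (29.7%). The counts of gene list members below are to be read beside these shares. Scaling by total counts in place of TMM shifted the median gene by -0.149 on the log2 scale and moved the split to 3262 raised and 5832 lowered genes, so directions below are relative to the bulk of the genes. With vehicle 1 and 2 alone, 4644 of 14887 genes rose (31.2%) and 4567 fell (30.7%). Of the first calls, 4006 of 4301 raised and 4205 of 4514 lowered genes kept their call, and among genes changed by 2-fold or more the log2 fold change was 1.16 times as large in the median.

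Stress genes led the rise. The 10 protein-coding genes raised most, among those whose groups did not overlap and that had at least 100 counts in every DSF library, were the small heat shock protein Hspb1, the plasma membrane protein Efr3b, the inducible HSP70 genes Hspa1b and Hspa1a, the meiotic helicase Hfm1, heme oxygenase Hmox1, the cell cycle regulator Rgcc, the ATP-gated channel P2rx7, the acyltransferase Gpat3 and the HSP70 cochaperone Bag3. Hspb1 (chr5:135887919-135889563, mm10) was at 0.860, 0.715, 2.17 and 7.22 CPM in vehicle libraries 1 to 4 and at 49.1, 63.8, 64.6 and 74.8 CPM in DSF libraries 1 to 4, which gave 4.57 ± 0.47 on the log2 scale (adjusted p = 9.80e-06). Hspa1b (chr17:34956436-34959238) was at 16.3, 23.2, 185 and 701 CPM with vehicle and at 3404, 3836, 4015 and 4541 CPM with DSF (4.09 ± 0.97, adjusted p = 0.00334). Hmox1 (chr8:75093621-75100589), which degrades heme, was at 10.2, 18.2, 132 and 257 and 1402, 1466, 1661 and 1770 CPM (3.92 ± 0.80, adjusted p = 0.0013). In each of these genes vehicle library 4 was the highest of its group and still well under the lowest DSF library. Without that library the log2 fold change was 5.64 for Hspb1, 5.72 for Hspa1b and 4.88 for Hmox1, and with vehicle 1 and 2 it was 6.32, 7.64 and 6.79. Hspa1a, a near-identical copy of Hspa1b whose reads cannot be assigned with certainty, gave 4.08 ± 0.95 (5.71 without vehicle library 4, 7.53 with vehicle 1 and 2).

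The other 6 genes had little mRNA before DSF. Efr3b (chr12:3962554-4038915) was at 0.286, 0.381, 1.15 and 4.49 CPM with vehicle and 22.9, 24.6, 27.8 and 32.8 CPM with DSF (4.15 ± 0.52, adjusted p = 3.70e-05, 5.45 without vehicle library 4, 6.32 with vehicle 1 and 2). Hfm1 was at 0.0478, 0, 0.600 and 1.28 and 6.83, 6.84, 7.99 and 7.88 CPM (3.97 ± 0.52, adjusted p = 5.23e-05, 5.03 without vehicle library 4). It had 1 and 0 counts in vehicle libraries 1 and 2, so against those libraries it was at least 51.6-fold higher, taking 3 counts per library as the floor. By the rule of choice, none of these genes overlapped between the groups. P2rx7 (chr5:122643911-122691432) went from 1.58, 1.24, 3.27 and 4.49 to 27.3, 34.6, 32.3 and 38.7 CPM (3.66 ± 0.29, adjusted p = 2.13e-06), Rgcc from 1.95 ± 1.22 to 26.9 ± 4.18 CPM (3.81), Gpat3 from 4.87 ± 3.89 to 52.1 ± 4.13 CPM (3.43) and Bag3 from 4.19 ± 1.94 to 39.0 ± 3.48 CPM (3.23). With vehicle 1 and 2 these 4 genes gave 4.56, 4.49, 5.00 and 3.78. Hfm1, P2rx7, Gpat3 and Bag3 overlap other annotated genes on the same strand. Since the strand setting of the counting is not given in the sources used here, reads of overlapping genes cannot be told apart.

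The genes lowered most were a mixed group of receptors, transporters, enzymes and a transcription factor. By the same rule they were the metabotropic glutamate receptor Grm6, the chemokine receptor Ccr6, the lysolipid transporter Mfsd2a, the glycosyltransferase B3gnt7, the zinc importer Slc39a10, the deglycosylating enzyme Engase, the sulfotransferase Chst10, the transcription factor Bcl11a, the actin nucleator Spire1 and the adaptor Lurap1. Grm6 (chr11:50850685-50866208) was at 43.1, 46.2, 33.6 and 33.4 CPM with vehicle and 2.89, 2.98, 3.47 and 2.99 CPM with DSF (-3.66 ± 0.14, adjusted p = 2.67e-07, with vehicle 1 and 2 -3.85). Ccr6 (chr17:8236043-8257141), the receptor for CCL20, was at 34.7, 36.1, 32.8 and 27.9 and 5.53, 6.02, 4.66 and 4.26 CPM (-2.69 ± 0.13, adjusted p = 5.02e-07, with vehicle 1 and 2 -2.79). Bcl11a (chr11:24078056-24174123), needed for B cell development, was at 158, 178, 134 and 115 and 39.0, 37.0, 34.7 and 31.6 CPM (-2.04 ± 0.13, adjusted p = 8.71e-07, with vehicle 1 and 2 -2.24). That every vehicle library exceeded every DSF library in these 3 genes follows from the rule. The margin was wide, vehicle libraries 3 and 4 included. The log2 fold changes of Mfsd2a, B3gnt7, Slc39a10 and Engase were -2.51, -2.38, -2.35 and -2.29, and those of Chst10, Spire1 and Lurap1 -2.22, -2.04 and -2.02. Lurap1 overlaps Pomgnt1 on the other strand, and Slc39a10 overlaps other annotated genes on the same strand.

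The leading raised genes included 4 of the HSF1 list and Hmox1 of the NRF2 list. The promoters of these lists and of the metal response list, which holds targets of MTF1, were searched for the letters the factors bind. Stretches with matches are shown for some of the list members that carry them, all of them raised by DSF. The metal response gene Slc30a5, lowered by DSF, also held a match for its list, which is not shown. The windows run from 250 bases before to 50 after each start site (RefSeq, GRCm38.p6), and 9673 of 14273 tested gene symbols had one. The heat shock element was taken as 3 adjoining units of GAA in alternating orientation with 2 bases between them. It was found in 4 of 17 HSF1 chaperone genes with a window (23.5%) and in 179 of all 27025 genes (0.662%). Capitals mark it in Hsph1 (chr5:149636287-149636312, minus strand, from 1 of its start sites), Chordc1 (chr9:18292251-18292296, plus strand) and Hspe1 (chr1:55088047-55088088, plus strand), where the stretch also falls in a promoter window of the neighbouring Hspd1 on the other strand.
Hsph1: aaatgctgcagaTTCTGGAAAGTTCt
Chordc1: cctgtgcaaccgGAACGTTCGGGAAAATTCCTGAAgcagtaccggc
Hspe1: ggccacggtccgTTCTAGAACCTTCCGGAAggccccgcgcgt
The windows of Hspa1a, Hspa1b, Dnajb1, Hspb1 and Bag3 held no such match, which says only that these letters are not in these windows. Units ran on without a gap in Chordc1 (3 overlapping matches) and Hspe1 (2 overlapping matches).

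The metal response core, TGC, then A or G, then C, any base and C, occurred in 5 of 11 metal response genes (45.5%) and in 28.2% of all genes (39.8% of the genes tested), so it is a common word. It is shown in capitals for Mt1 (chr8:94179054-94179118, plus strand), with 3 matches near the start site, and for Slc30a1 (chr1:191906726-191906756, plus strand), where 1 of its 2 matches is shown, read on the minus strand, so that the capitals are the reverse complement of the core.
Mt1: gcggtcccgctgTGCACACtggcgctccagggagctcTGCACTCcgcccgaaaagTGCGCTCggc
Slc30a1: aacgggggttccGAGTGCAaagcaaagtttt
The antioxidant response core, TGAC, 3 bases of any kind and GC, occurred in 8 of 20 NRF2 targets (40%) and in 14% of all genes (17% of the genes tested). It was not particular to the NRF2 list, since 5 of 11 metal response genes (45.5%) held it too. It is shown in capitals for Gclm (chr3:122245411-122245443, plus strand), Txnrd1 (chr10:82859102-82859134, plus strand) and Srxn1 (chr2:152105540-152105569, plus strand). Each of these matches is read on the minus strand, so that the capitals are the reverse complement of the core.
Gclm: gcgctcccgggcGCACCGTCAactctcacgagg
Txnrd1: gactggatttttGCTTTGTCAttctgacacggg
Srxn1: gggcagtgggcaGCTAGGTCAgagtgagac

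The list of HSF1 chaperones, mostly cytosolic but with the mitochondrial Hspe1 and Hspd1 among them, rose almost as a whole. Of 20 HSF1 chaperones 19 rose and Hspa4 (-0.063) did not pass the test, with a median log2 fold change of 1.69 against -0.015 over all genes tested, and 1.99 with vehicle 1 and 2. Hsph1, the large HSP110 chaperone whose promoter is shown above, was at 189, 210.4, 358 and 615 CPM with vehicle and 2125, 2296, 2366 and 2544 CPM with DSF (2.77 ± 0.32, adjusted p = 2.01e-05, with vehicle 1 and 2 3.55). Dnajb1, the J-protein partner of HSP70, was at 56.6, 53.8, 66.7 and 89.8 and 266, 276, 295 and 304 CPM (2.10 ± 0.14, adjusted p = 1.10e-06). The constitutive HSP70 gene Hspa8, which hosts small nucleolar RNA genes in its introns, was at 2595, 2768, 3462 and 3985 and 8695, 8661, 8997 and 9291 CPM (1.48 ± 0.12, adjusted p = 2.32e-06). DSF and vehicle libraries did not overlap in any of these genes. Chordc1, Hspe1 and Hspd1 are named for their promoter match, a choice made after their values were seen. Chordc1, an HSP90 cochaperone, rose from 141 ± 36.9 to 446 ± 27.9 CPM (1.66 ± 0.15, adjusted p = 4.21e-06). The mitochondrial chaperonin pair Hspe1 and Hspd1, encoded next to each other on opposite strands, rose by 1.61 ± 0.11 and 0.84 ± 0.061 on the log2 scale. Per transcript length, in the authors' FPKM (means of 4 libraries), the constitutive Hspa8 was at 731 FPKM with vehicle and 2067 FPKM with DSF. The inducible copies Hspa1b and Hspa1a, whose reads cannot be told apart with certainty, were at 80.6 and 45.2 FPKM with vehicle and 1405 and 781 FPKM with DSF.

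NRF2 targets rose as broadly. Of 24 tested, 21 rose and 2 fell, Abcc1 (-0.20) and Tkt (-0.42), with a median log2 fold change of 1.55, or 2.10 with vehicle 1 and 2. The glutathione synthesis subunit Gclm was at 40.0, 40.7, 113 and 150.2 CPM with vehicle and 447, 432, 467 and 475 CPM with DSF (2.41 ± 0.37, adjusted p = 1.67e-04, with vehicle 1 and 2 3.50). The ferritin heavy chain Fth1, which stores iron, was at 337, 357, 839 and 1262 and 4582, 4695, 5811 and 5521 CPM (2.88 ± 0.38, adjusted p = 4.93e-05, with vehicle 1 and 2 3.89). Thioredoxin reductase Txnrd1 was at 404, 421, 774 and 894 and 1736, 1715, 1726 and 1805 CPM (1.49 ± 0.22, adjusted p = 1.46e-04, with vehicle 1 and 2 2.08). Vehicle libraries 3 and 4 lay between the other vehicle libraries and the DSF libraries in these genes, and no vehicle library reached a DSF library. Sulfiredoxin Srxn1 rose from 23.2 ± 8.84 to 67.0 ± 5.52 CPM (1.53, with vehicle 1 and 2 2.09) and the oxidative stress growth inhibitor Osgin1 from 3.28 ± 2.56 to 24.1 ± 2.52 CPM (2.90, with vehicle 1 and 2 4.28).

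Metal response genes moved in both directions, where 30.1% of all genes rose and 31.6% fell. Of 13 tested, 7 rose and 3 fell, the zinc transporters Slc39a10, Slc39a1 (-0.22) and Slc30a5 (-0.23) (median 0.23), and scaling by total counts turned this into 5 raised and 6 lowered. Metallothionein Mt1 (chr8:94179082-94180327), which binds zinc and copper, was at 1.72, 5.38, 71.6 and 88.3 CPM with vehicle and 251, 252, 292 and 263 CPM with DSF. Its log2 fold change was 2.67 ± 0.79 (adjusted p = 0.0122), 3.32 without vehicle library 4 and 6.21 with vehicle 1 and 2, so vehicle libraries 3 and 4 were far above the other vehicle libraries without reaching the DSF level. The zinc exporter Slc30a1 (chr1:191906767-191913247) was at 14.6, 18.2, 35.5 and 47.3 and 86.5, 77.6, 76.6 and 73.8 CPM (1.45 ± 0.29, adjusted p = 0.00109, with vehicle 1 and 2 2.26). The zinc importer Slc39a10 went the opposite way, at 40.6, 38.8, 23.4 and 19.5 CPM with vehicle and 5.93, 6.38, 6.26 and 5.39 CPM with DSF (-2.35 ± 0.23, adjusted p = 6.12e-06). Mt1 and Slc30a1 thus rose without overlap between the groups, while the importer, chosen above among genes without overlap, fell.

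**Figure D1:**
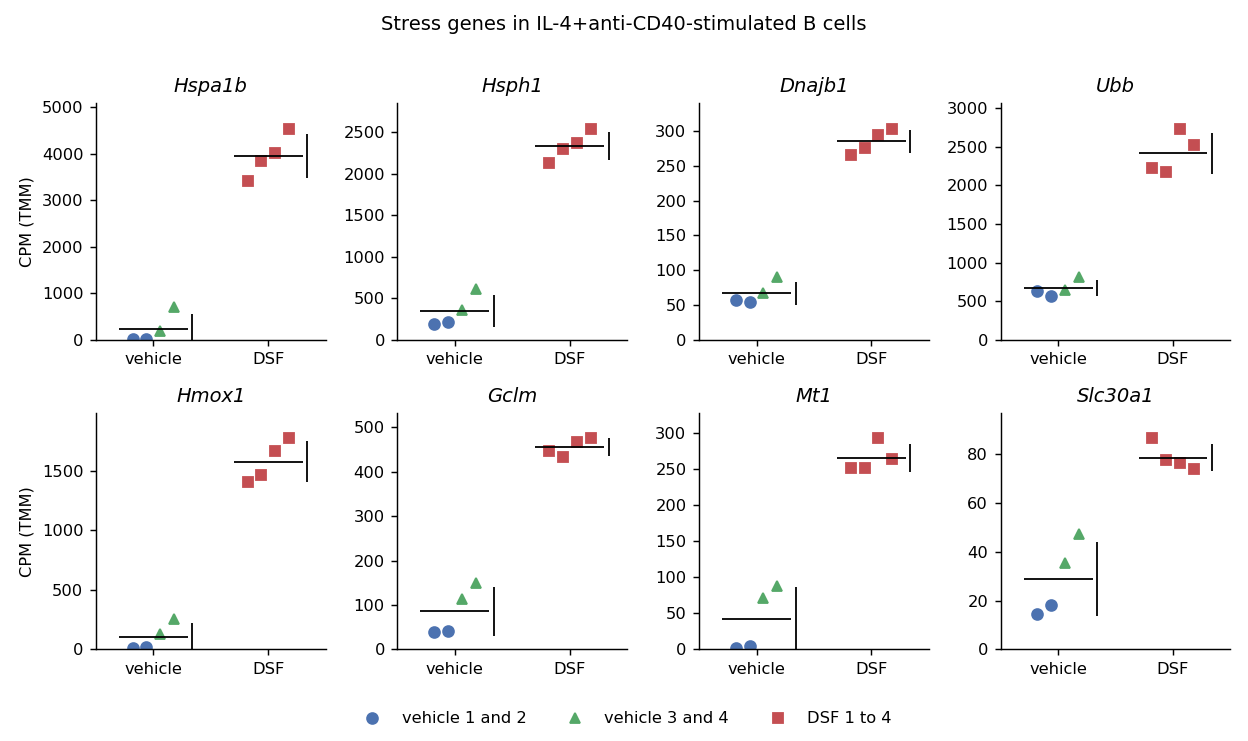
TMM-normalized CPM of 8 stress genes in each of the 4 vehicle libraries (circles for 1 and 2, triangles for 3 and 4) and the 4 DSF libraries (squares) with IL-4+anti-CD40, on linear axes from 0, with the group mean as a horizontal line and the SD beside it as a vertical bar cut off at 0. Vehicle libraries 3 and 4 sit above 1 and 2 in each gene and under every DSF library, as in Gclm, where vehicle library 4 was at 150.2 CPM and the lowest DSF library at 432 CPM.

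The endoplasmic reticulum did not show such a uniform rise. Of 20 chaperone and unfolded protein response genes 8 rose and 6 fell, with a median of 0.0037 that turned negative with total counts. Over all genes tested 30.1% rose and 31.6% fell. The master chaperone Hspa5 (BiP) was at 1504, 1521, 1434 and 1445 CPM with vehicle and 1566, 1450, 1637 and 1573 CPM with DSF, groups that overlap (0.076 ± 0.055, adjusted p = 0.247). The disulfide isomerase Pdia4 fell from 143 ± 6.81 to 93.1 ± 5.60 CPM (-0.62 ± 0.058, adjusted p = 5.20e-06), whereas the J-protein Dnajb9 rose from 60.7 ± 22.4 to 277 ± 17.4 CPM (2.19 ± 0.20, adjusted p = 4.42e-06). Among 19 ATF4 targets of the integrated stress response 12 rose and 5 fell (median 0.34), and the count of lowered targets was unstable, at 2 or 3 on leaving out vehicle library 1 or 2 or DSF library 1, 2 or 3 and at 1 when all 20 samples of the first experiment, the LPS and unstimulated ones included, shared a fit. Ddit3 (CHOP), which overlaps Mars, rose from 55.6 ± 8.78 to 132 ± 9.18 CPM (1.24 ± 0.10, adjusted p = 2.38e-06), and Atf3, a stress-induced repressor, from 45.4 ± 17.4 to 251 ± 17.3 CPM (2.47 ± 0.20, adjusted p = 2.62e-06).

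Ubiquitin and autophagy genes rose together with the chaperones. The polyubiquitin gene Ubb was at 631, 569, 645 and 813 CPM with vehicle and 2227, 2180, 2738 and 2522 CPM with DSF (1.86 ± 0.11, adjusted p = 8.65e-07). Of 16 genes of the segregase p97 and its NPL4 cofactor, ubiquitin genes included, 12 rose and 4 did not pass (median 0.38, and 10 raised and 2 lowered with total counts). Vcp, encoding p97, rose from 455 ± 52.2 to 839 ± 35.5 CPM (0.88 ± 0.078), Nploc4, encoding NPL4, from 157 ± 20.9 to 288 ± 10.8 CPM (0.88 ± 0.084), and the cofactor Ubxn4 by 1.66 ± 0.17. Proteasome subunits rose to a like extent. Of 32, 25 rose (median 0.38), among them Psmd1, a scaffold subunit of the regulatory particle (0.66 ± 0.078, adjusted p = 2.29e-05), and Psmd6 (-0.23) fell. Psmd6 lost its call without vehicle library 1 or 2 or DSF library 1, 2 or 4, and 2 subunits fell without vehicle library 4 or DSF library 3. Of 22 autophagy genes 18 rose and 2 fell, Atg16l1 (-0.26) and Atg3 (-0.16) (median 0.76), with 1 of these lowered without vehicle library 1 or 2 or DSF library 2 or 3. The receptor Sqstm1 (p62), which brings ubiquitinated cargo to the autophagosome, was at 407, 439, 824 and 1172 CPM with vehicle and 3353, 3473, 3705 and 3873 CPM with DSF (2.34 ± 0.29, adjusted p = 3.32e-05, with vehicle 1 and 2 3.09). Gabarapl1, of the LC3 family, rose by 2.21 ± 0.26 (with vehicle 1 and 2 2.91) and the initiating kinase Ulk1 by 1.61 ± 0.14.

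Transcripts of the aldehyde dehydrogenases, the classical enzyme targets of DSF, changed by less than 2-fold where they passed the test. Of 11 tested 2 rose and 5 fell (3 fell without vehicle library 2 or DSF library 4), where 30.1% of all genes rose and 31.6% fell. The mitochondrial Aldh2 was at 125, 128, 119 and 132 CPM with vehicle and 143, 143, 142 and 139 CPM with DSF (0.17 ± 0.047, adjusted p = 0.00945), a difference no longer past the threshold with total counts or with all 20 samples in one fit. Aldh1b1 fell from 9.81 ± 0.972 to 5.93 ± 0.873 CPM (-0.73 ± 0.13, adjusted p = 5.46e-04).

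The genes that IL-4 and CD40 turn on were lowered in part. Among 23 IL-4 and STAT6 targets 4 rose, Bcl6 (0.48), Ciita (0.24), H2-Aa (0.19) and Il2rg (0.27), and 11 fell (median -0.28, and 16 lowered with total counts). Fcer2a (CD23, chr8:3681737-3694175), the low-affinity IgE receptor, was at 3192, 3397, 2562 and 2315 CPM with vehicle and 1124, 1138, 1021 and 1125 CPM with DSF (-1.38 ± 0.11, adjusted p = 2.21e-06, with vehicle 1 and 2 -1.58). Cish (chr9:107296026-107302784), a feedback inhibitor of STAT signaling, was at 153, 151, 144 and 142 and 71.7, 70.4, 69.2 and 70.5 CPM (-1.06 ± 0.047, adjusted p = 5.02e-07). The repressor Nfil3 was at 201, 214, 158 and 142 and 54.7, 49.3, 48.8 and 50.7 CPM (-1.81 ± 0.12, adjusted p = 1.08e-06, with vehicle 1 and 2 -2.03). In Fcer2a and Nfil3 vehicle libraries 3 and 4 were lower than 1 and 2, while in Cish the 4 vehicle libraries were close together, and no DSF library reached any vehicle library. Ighg1, read here as transcripts of the gamma 1 heavy chain gene, fell from 33.2 ± 4.16 to 19.0 ± 1.66 CPM (-0.80 ± 0.10, adjusted p = 3.53e-05).

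CD40 and NF-κB targets were lowered more widely, although mostly by less than 2-fold. Of 26 tested 18 fell and 2 rose, the death receptor Fas (0.89) and Nfkbiz (0.27) (median -0.35). With all 20 samples in one fit 11 fell, and the call of Traf1 (-0.46, adjusted p = 0.189 in edgeR's test) was lost. The inhibitor Nfkbia, a rapid readout of NF-κB, was at 565, 579.5, 514 and 504 CPM with vehicle and 410.2, 416, 474 and 478 CPM with DSF (-0.28 ± 0.070, adjusted p = 0.00464), and the deubiquitinase gene Tnfaip3 (A20) was also lower (-0.42 ± 0.056). The adaptor Traf1 went from 673, 683, 643 and 617 to 431, 447, 475 and 473 CPM (-0.52 ± 0.055, adjusted p = 1.13e-05). Survival genes among the targets fell further. Bcl2l1, encoding BCL-xL, was at 255, 276, 203 and 181 CPM with vehicle and 102, 91.7, 99.7 and 101 CPM with DSF (-1.22 ± 0.12, adjusted p = 5.55e-06, with vehicle 1 and 2 -1.43). Bcl2a1d (A1), which has near-identical copies so that its reads are uncertain, went from 235 ± 42.7 to 83.4 ± 9.14 CPM (-1.49 ± 0.12), and the ubiquitin ligase Birc3 (cIAP2) from 955 ± 99.8 to 456 ± 14.5 CPM (-1.07 ± 0.073). With vehicle 1 and 2 alone 16 of the 26 fell and 3 rose.

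Activation markers at the cell surface were mostly lower. Of 21 costimulation and activation genes 12 fell and 5 rose, the ligands Cd274 (1.19), Icosl (0.84) and Pdcd1lg2 (0.50) and the receptors Cd38 (1.01) and Tnfrsf13c (0.31) (median -0.21). With all 20 samples in one fit 5 fell, and the call of Cd86 (-0.12, adjusted p = 0.816 in edgeR's test) was lost. Cd44, the hyaluronan receptor of activated lymphocytes, was at 1443, 1521, 1127 and 1048 CPM with vehicle and 527, 482, 493 and 487 CPM with DSF (-1.37 ± 0.11, adjusted p = 2.19e-06, with vehicle 1 and 2 -1.57). Il2ra (CD25), the alpha chain of the IL-2 receptor, was at 449, 469.7, 349.5 and 316 and 136, 129.8, 129.7 and 134 CPM (-1.58 ± 0.11, adjusted p = 1.34e-06, with vehicle 1 and 2 -1.79). Cd86, a ligand of CD28, changed by less, from 256 ± 7.49 to 226 ± 9.67 CPM (-0.18 ± 0.049, adjusted p = 0.0064). Vehicle and DSF libraries did not overlap in Cd44, Il2ra and Cd86.

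Immediate early genes, in contrast, mostly rose. Of 29 tested 21 rose and 4 fell, Egr2 (-1.13), Egr3 (-0.19), Srf (-0.40) and Dusp10 (-0.23) (2 fell with all 20 samples in one fit, median 0.99, with vehicle 1 and 2 0.83). Jun, of the AP-1 complex, was at 50.2, 56.4, 59.0 and 87.7 CPM with vehicle and 176, 188, 189.8 and 213 CPM with DSF (1.60 ± 0.15, adjusted p = 4.37e-06), with the overlapping antisense gene Junos not separable. Its partner Fos was at 3.53, 4.86, 11.5 and 14.9 and 26.1, 29.0, 28.0 and 26.7 CPM (1.66 ± 0.34, adjusted p = 0.0013, with vehicle 1 and 2 2.71). The orphan nuclear receptor Nr4a2 was at 2.29, 2.62, 4.43 and 5.62 and 23.7, 25.5, 29.4 and 33.0 CPM (2.91 ± 0.23, adjusted p = 2.21e-06, with vehicle 1 and 2 3.51). The list was not uniform: Nr4a1, which antigen receptor signals induce, rose by 1.07 ± 0.10, but Egr1, the other classical early gene, was at 42.5, 50.9, 53.3 and 52.6 CPM with vehicle and 50.2, 45.8, 48.3 and 52.4 CPM with DSF, groups that overlap (-0.019 ± 0.079, adjusted p = 0.851).

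Of 23 cytokine and chemokine genes 6 rose and 4 fell, no larger shares than the 30.1% and 31.6% of all genes (1 fell with all 20 samples in one fit), and with vehicle 1 and 2 alone 11 rose (10 without vehicle library 4). The neutrophil chemokine Cxcl2 varied within both groups, at 0.621, 1.52, 5.21 and 12.7 CPM with vehicle and 13.2, 21.9, 67.2 and 71.6 CPM with DSF (3.15 ± 0.73, adjusted p = 0.00294, 4.13 without vehicle library 4, 5.34 with vehicle 1 and 2). Vehicle library 4 came close to DSF library 1. The angiogenic factor Vegfa rose from 50.5 ± 7.65 to 93.1 ± 7.26 CPM (0.88 ± 0.10), and Il6, at a low level, fell from 3.23 ± 0.601 to 1.84 ± 0.629 CPM (-0.81 ± 0.24, adjusted p = 0.0115).

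**Figure D2:**
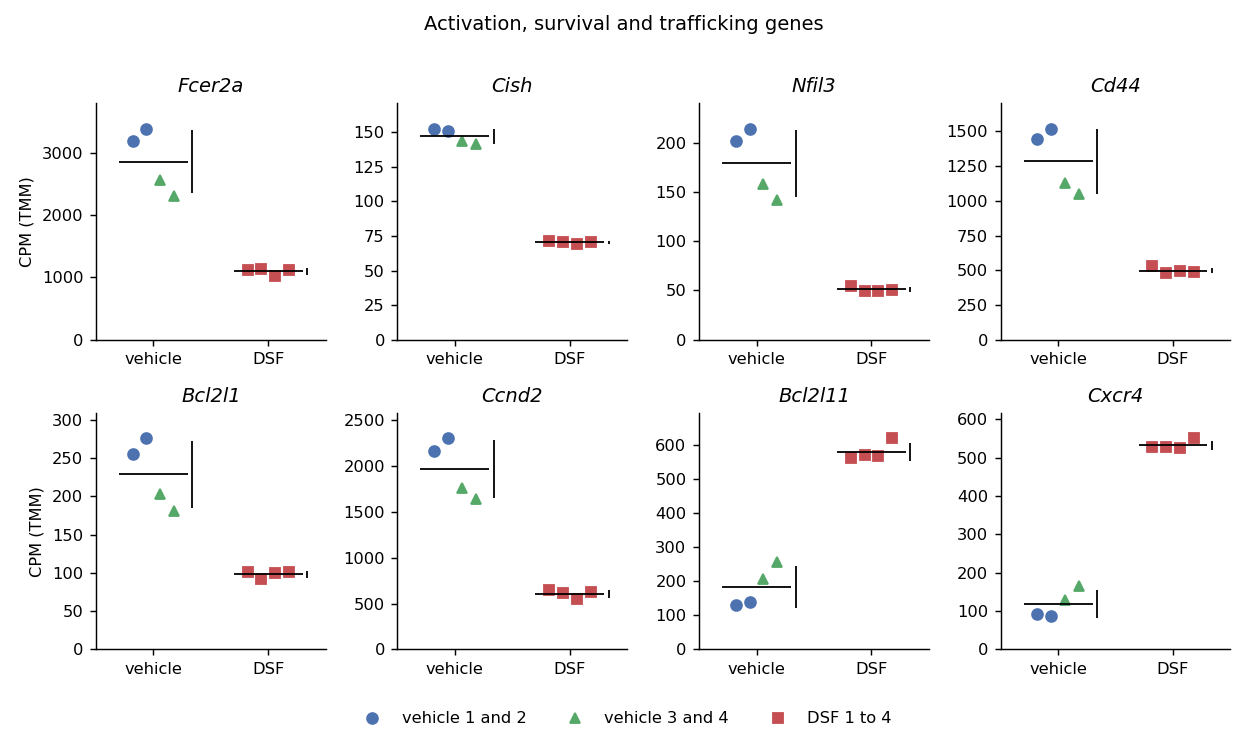
TMM-normalized CPM of 8 activation, survival and trafficking genes in the 4 vehicle libraries (circles for 1 and 2, triangles for 3 and 4) and the 4 DSF libraries (squares) with IL-4+anti-CD40, on linear axes from 0, with the group mean as a horizontal line and the SD beside it as a vertical bar. Fcer2a, Cish, Nfil3, Cd44, Bcl2l1 and Ccnd2 are lower and Bcl2l11 and Cxcr4 higher in every DSF library, and the DSF libraries of Cish lie between 69.2 and 71.7 CPM.

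Genes of B cell identity moved in both directions, where 30.1% of all genes rose and 31.6% fell, and the raised share was larger among surface and receptor signaling genes. Of 29 surface and receptor signaling genes 14 rose and 10 fell (median 0.11, of opposite sign with total counts, and 5 lowered with all 20 samples in one fit), and of 24 B cell transcription factors 9 rose and 9 fell. The complement receptor Cr2 (CD21) was at 734, 739, 620.5 and 549.9 CPM with vehicle and 239, 233, 208 and 212 CPM with DSF (-1.57 ± 0.10, adjusted p = 8.65e-07). Cd79a, a signaling chain of the B cell receptor, rose from 446 ± 26.8 to 590.3 ± 20.7 CPM (0.41 ± 0.056, adjusted p = 7.30e-05). The inhibitory Fc receptor Fcgr2b was at 19.0, 22.8, 30.1 and 38.9 and 70.5, 70.1, 65.0 and 67.0 CPM (1.30 ± 0.17, adjusted p = 5.70e-05), without overlap. Among the transcription factors Pax5, which maintains B cell identity, was at 808, 850.5, 709 and 659 CPM with vehicle and 351, 352, 332 and 348 CPM with DSF (-1.13 ± 0.077, adjusted p = 1.23e-06). Mef2c, a factor for B cell proliferation after receptor signals, was at 481, 506, 368 and 354 and 123, 119, 99.7 and 105 CPM (-1.93 ± 0.12, adjusted p = 9.18e-07). Bach2, which holds back plasma cell differentiation, went up, from 91.0 ± 5.68 to 149 ± 8.70 CPM (0.71 ± 0.062, adjusted p = 3.32e-06).

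Antigen presentation genes also moved in both directions, beside the 30.1% raised and 31.6% lowered of all genes. Of 15 MHC class II genes 6 rose and 5 fell (median 0.050, of opposite sign with total counts, which gave 4 raised and 6 lowered). The invariant chain Cd74 rose slightly, from 7385 ± 277 to 8910 ± 331 CPM (0.27 ± 0.057, adjusted p = 0.00146), and H2-DMb2, a chain of the peptide-loading H2-DM molecule, was at 629.8, 603, 548 and 486 CPM with vehicle and 290.4, 271, 284 and 263 CPM with DSF (-1.03 ± 0.078, adjusted p = 1.62e-06).

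Trafficking receptors moved in opposite directions. Of 27 quiescence and trafficking genes 16 rose and 6 fell (median 0.51). Cxcr4 (chr1:128588199-128592293), the CXCL12 receptor, was at 91.1, 86.0, 128 and 165 CPM with vehicle and 526, 529, 526 and 550.0 CPM with DSF (2.18 ± 0.17, adjusted p = 2.02e-06, with vehicle 1 and 2 2.59). The lymphoid organ exit receptor S1pr1 was at 28.7, 29.1, 42.7 and 62.7 and 151, 146, 150.5 and 149 CPM (1.87 ± 0.20, adjusted p = 1.42e-05, with vehicle 1 and 2 2.37). Thus Cxcr4 and S1pr1 rose without overlap between the groups, while Ccr6, chosen above among genes without overlap, fell. The quiescence factor Klf2, an inducer of S1pr1 in lymphocytes, went from 56.4 ± 1.78 to 48.4 ± 1.53 CPM (-0.22 ± 0.053, adjusted p = 0.00353).

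Growth metabolism was lowered across several pathways. Myc fell from 602 ± 53.1 to 389.9 ± 16.1 CPM (-0.63 ± 0.067, adjusted p = 1.18e-05), and its antagonist Mxd1 rose from 66.0 ± 22.5 to 243 ± 7.58 CPM (1.88 ± 0.19, adjusted p = 6.86e-06). Of 12 genes of the Myc network 5 rose and 2 fell. De novo purine synthesis fell in 11 of 14 genes (median -0.60), with Gart, a trifunctional enzyme, at 239, 248, 191 and 173 and 80.4, 68.9, 69.0 and 75.5 CPM (-1.53 ± 0.11, adjusted p = 1.35e-06) and the synthase Pfas also lower (-1.29 ± 0.077). Adssl1 (0.25) rose, a call lost on leaving out any 1 of the 8 libraries. Of 17 serine and folate one-carbon enzymes 12 fell and 3 rose (median -0.66), among them Mthfd2 (0.15). Among the lowered ones the folate enzyme Mthfd1 was at 177, 179.5, 159 and 137 and 66.7, 63.7, 59.5 and 61.7 CPM (-1.38 ± 0.083, adjusted p = 8.65e-07), and the mitochondrial Shmt2 went from 597 ± 46.3 to 370.0 ± 22.7 CPM (-0.69 ± 0.067). Cholesterol synthesis genes fell in 19 of 25, the other 6 not passing (median -0.40), although with vehicle 1 and 2 alone 2 rose and 20 fell, and with all 20 samples in one fit 10 fell. The sterol enzyme Hsd17b7 went from 80.7 ± 7.84 to 30.8 ± 2.52 CPM (-1.39 ± 0.084).

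Glycolysis and amino acid transport genes were changed in shares near those of all genes (30.1% raised and 31.6% lowered). Of 22 glycolysis and lactate export genes 7 rose and 9 fell, among them hexokinase Hk2, at 101, 107, 84.2 and 77.6 CPM with vehicle and 33.4, 32.5, 28.1 and 35.5 CPM with DSF (-1.51 ± 0.11, adjusted p = 1.34e-06), and lactate dehydrogenase Ldha (-0.72 ± 0.076). The glucose transporter Slc2a1 rose from 40.2 ± 4.76 to 77.7 ± 1.65 CPM (0.95 ± 0.077, adjusted p = 2.30e-06). Of 19 amino acid transporters 8 rose and 7 fell (3 fell with all 20 samples in one fit), and Slc3a2, the heavy chain that carries the LAT1 and xCT transporters to the membrane, was at 249.8, 262, 310.3 and 383 and 737, 773, 849.5 and 849.6 CPM (1.41 ± 0.12, adjusted p = 2.93e-06). TCA cycle enzymes fell in 13 of 22 (median -0.38), as Idh3a did (-1.11 ± 0.11), and citrate synthase Cs (0.22) rose.

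Nuclear and mitochondrial genes for mitochondrial proteins moved in opposite directions. Of 74 mitochondrial ribosomal protein genes 53 fell and 6 rose (median -0.43), with Mrps5 down (-1.15 ± 0.089) and Mrps6, which overlaps Slc5a3 on the same strand, up from 14.1 ± 2.26 to 42.7 ± 4.69 CPM (1.60 ± 0.12). Of 71 nuclear genes of the respiratory chain 37 fell, as Uqcrc1 did (-0.58 ± 0.058), and 5 rose, Uqcrh (0.56), Cox4i1 (0.37), Cox7a2 (0.36), Atp5l (0.20) and Cox7c (0.20) (median -0.27). Without vehicle library 3 or 4 or DSF library 3 the raised genes numbered 3. With vehicle 1 and 2 alone 49 of these 71 fell, and with vehicle 3 and 4 alone 25 fell and 11 rose. Of the 13 mitochondrially encoded mRNAs 10 rose and 3 did not pass (median 0.42), as mt-Co1 did, at 5265, 6205, 6014 and 6424 CPM with vehicle and 7669, 7392, 8147 and 8250 CPM with DSF (0.40 ± 0.072, adjusted p = 5.73e-04). Cytosolic ribosomal protein genes also rose, 67 of 79 with 12 not passing (median 0.35, and 46 raised and 2 lowered with total counts). Rps27 was at 709.7, 687, 588 and 622 and 1101, 1092, 1250 and 1170 CPM (0.82 ± 0.072, adjusted p = 3.59e-06).

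Of 24 G1 genes 9 rose and 9 fell, shares near the 30.1% and 31.6% of all genes. Cyclin D2 (Ccnd2), the main D-type cyclin of activated B cells, was at 2170, 2304, 1759 and 1644 CPM with vehicle and 649.5, 612, 547 and 624 CPM with DSF (-1.70 ± 0.11, adjusted p = 9.69e-07, with vehicle 1 and 2 -1.88), and its kinase Cdk4 was lower (-0.59 ± 0.067). The CDK inhibitor Cdkn1a (p21) was at 52.3, 52.5, 112 and 144 and 215, 229.7, 269 and 285 CPM (1.47 ± 0.29, adjusted p = 9.43e-04, with vehicle 1 and 2 2.25). The main cyclin and its kinase were thus lower and the inhibitor higher in every DSF library. Of 29 DNA replication licensing genes 8 rose and 14 fell (median -0.17, and 3 raised and 15 lowered with total counts). Cdkn1a is also a p53 target, and of 24 p53 targets 15 rose and 7 fell (median 0.45).

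In the BCL2 family, 6 of 14 genes rose and 6 fell, where 30.1% of all genes rose and 31.6% fell. The death-promoting BH3-only gene Bcl2l11 (BIM) was at 129.6, 138, 207 and 257 CPM with vehicle and 562, 571, 567 and 618 CPM with DSF (1.66 ± 0.18, adjusted p = 1.53e-05, with vehicle 1 and 2 2.11), and Pmaip1 (NOXA) at 42.7, 42.9, 56.7 and 70.3 and 132, 129.9, 136 and 126 CPM (1.30 ± 0.14, adjusted p = 1.06e-05). Of the protective members Bcl2l1 and Bcl2a1d fell, as given above, and Bcl2 went from 22.7 ± 1.81 to 16.5 ± 0.758 CPM (-0.47 ± 0.082), whereas Mcl1 rose from 721 ± 30.1 to 947 ± 41.5 CPM (0.39 ± 0.054, adjusted p = 7.78e-05). Of 23 nucleotide excision repair and TFIIH genes 16 fell and 2 rose, Gtf2h1 and Ddb2 (0.54) (median -0.38). The nuclease gene Ercc4 went from 31.4 ± 2.98 to 14.6 ± 1.75 CPM (-1.11 ± 0.10), and Gtf2h1, a TFIIH core subunit, rose from 106 ± 10.3 to 208 ± 10.8 CPM (0.98 ± 0.071). Of 34 SR protein and hnRNP genes 16 rose and 8 fell (median 0.093, of opposite sign with total counts, with 5 lowered without vehicle library 2 and 4 with all 20 samples in one fit), and of 24 mRNA decay regulators 7 rose and 9 fell, near the shares of all genes. Zfp36l1, which destabilizes AU-rich mRNAs, was at 513, 505, 415 and 369 CPM with vehicle and 153, 166, 139 and 168 CPM with DSF (-1.53 ± 0.11, adjusted p = 1.28e-06).

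**Figure D3:**
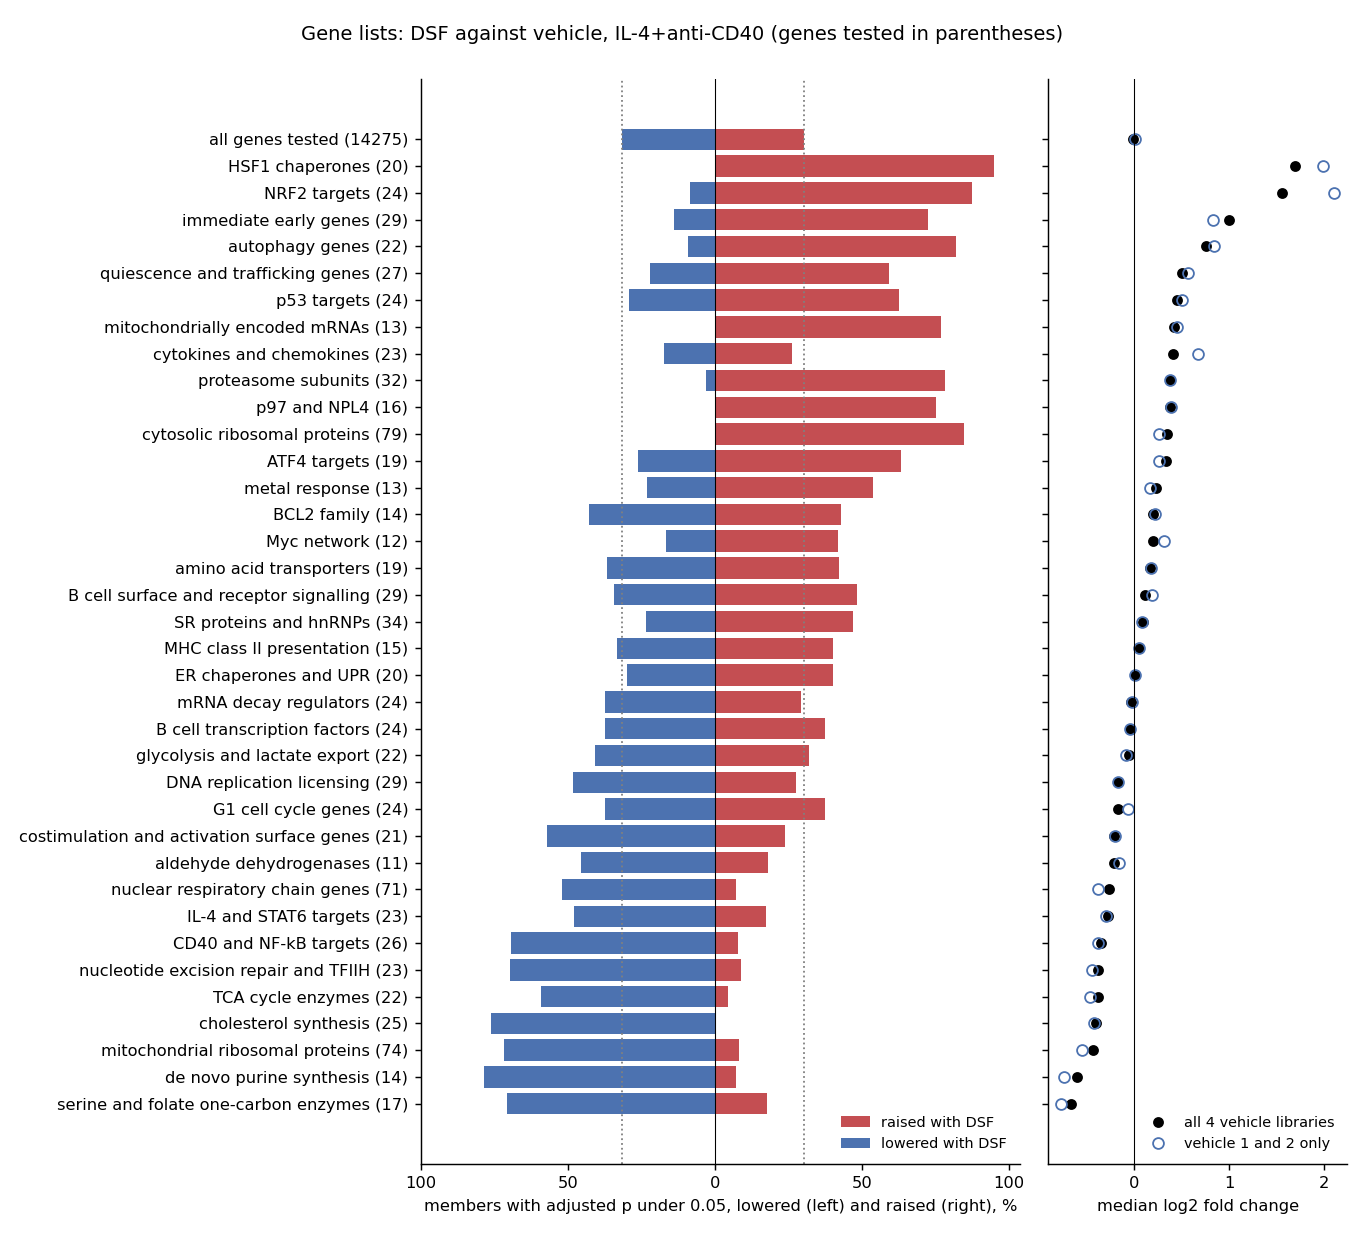
For 36 gene lists and all genes tested, the left panel gives the share of members lowered (left of 0) and raised (right of 0) by DSF at an adjusted p under 0.05, in percent, with dotted lines at the 31.6% and 30.1% of all genes, and the right panel the median log2 fold change against all 4 vehicle libraries (filled) and against vehicle 1 and 2 (open). HSF1 chaperones and NRF2 targets have the highest medians (1.69 and 1.55), and purine and one-carbon enzymes the lowest (-0.60 and -0.66).

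The response was compared with that to DSF under LPS in the same experiment, 4 DSF and 4 vehicle libraries that the IL-4+anti-CD40 comparison does not share. Of 15130 genes tested for a difference between the DSF effects, 1053 (6.96%) had a more positive and 1199 (7.92%) a more negative effect with IL-4+anti-CD40. With all 20 samples in one fit, the unstimulated ones included, these numbers were 710 and 205. Without vehicle libraries 3 and 4 of IL-4+anti-CD40 these numbers were 1465 and 1409, and of the 2212 called genes tested in both fits 1815 kept and 397 lost their call. DSF changed 210 of 13736 genes in opposite directions under the stimuli, 128 of them up with IL-4+anti-CD40 and down with LPS.

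Several B cell receptor genes went in opposite directions. Of the 29 surface and receptor signaling genes 14 had a more positive effect with IL-4+anti-CD40 and 4 a more negative one. Fcgr2b was at 18.2, 22.2, 28.9 and 37.3 CPM with vehicle and 68.2, 68.0, 62.7 and 64.7 CPM with DSF under IL-4+anti-CD40, but at 156, 172, 151 and 154 and 59.6, 57.4, 59.2 and 56.2 CPM under LPS (difference of the log2 effects 2.76 ± 0.18 SE, adjusted p = 8.14e-09). With DSF the levels under the stimuli lay within 56.2 to 68.2 CPM, and with vehicle they were far apart. The ectoenzyme gene Cd38 went from 19.2 ± 6.25 to 38.9 ± 4.97 CPM under IL-4+anti-CD40 and from 62.6 ± 1.49 to 28.0 ± 0.665 CPM under LPS (difference 2.18 ± 0.20, adjusted p = 3.53e-07). Cd79a rose by 0.41 under IL-4+anti-CD40 and fell under LPS (-0.24, difference 0.65 ± 0.077, adjusted p = 8.72e-06). Jun went from 61.0 ± 15.7 to 186 ± 15.0 CPM under IL-4+anti-CD40 and from 361 ± 13.0 to 254 ± 8.84 CPM under LPS (difference 2.11 ± 0.16, adjusted p = 2.81e-08). The polycomb-like gene Scml4 (0.87 ± 0.14 and -1.58 under the stimuli) had a difference of 2.46 ± 0.15 (adjusted p = 1.80e-09).

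Other genes that differed had little mRNA under IL-4+anti-CD40. Ptges, a prostaglandin E synthase, fell under LPS (-1.40) from 15.2 ± 0.731 CPM, and was near the detection limit under IL-4+anti-CD40, at 0.617 ± 0.605 CPM with vehicle and 1.11 ± 0.489 CPM with DSF (difference 2.29 ± 0.51, adjusted p = 0.00403, 3.07 without vehicle library 4 and 4.15 without vehicle libraries 3 and 4). The same holds for the acute-phase gene Saa3, at 0, 0, 0.266 and 0.205 CPM with vehicle and from 0.0964 to 0.308 CPM with DSF under IL-4+anti-CD40 against 9.18 ± 0.823 and 3.50 ± 0.538 CPM under LPS (difference 2.18 ± 0.68, adjusted p = 0.0366). That call was lost on leaving out vehicle library 1 or 2, DSF library 2, 3 or 4, LPS vehicle library 3 or 4 or LPS DSF library 2 or 3, and the difference was 3.00 without vehicle library 3. Without vehicle libraries 3 and 4 the difference was 6.51, a size that rests on vehicle libraries at 0 CPM. The survival gene Bcl2 fell by more under LPS, from 93.8 CPM or more to 35.9 CPM or less in the single libraries, than under IL-4+anti-CD40 (-0.47, difference 1.04 ± 0.083, adjusted p = 6.17e-08).

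Of the 23 IL-4 and STAT6 targets 8 had a more negative DSF effect under IL-4+anti-CD40 and 2 a more positive one, and of the 26 CD40 and NF-κB targets 10 and 2. Cish was at 147, 147, 138 and 136 CPM with vehicle and 69.3, 68.4, 66.8 and 68.1 CPM with DSF under IL-4+anti-CD40, and at 33.9, 29.0, 32.3 and 26.6 and 35.1, 28.2, 33.5 and 32.4 CPM under LPS (difference -1.14 ± 0.10, adjusted p = 1.82e-07). Even with DSF, Cish stayed above its level in all LPS libraries. Cd44 changed by -1.37 on the log2 scale under IL-4+anti-CD40 and by -0.20 under LPS (difference -1.17 ± 0.12, adjusted p = 2.33e-06). Fcer2a, Cr2 and Ighg1 had differences of -0.99 ± 0.12, -1.04 ± 0.11 and -1.14 ± 0.15 (adjusted p = 1.46e-05, 2.76e-06 and 3.00e-05), and Lurap1, which was low under LPS at 0.595 ± 0.124 CPM, one of -2.15 ± 0.38 (adjusted p = 5.62e-04). With all 20 samples in one fit the calls of Fcer2a, Cr2, Ighg1 and Lurap1 were lost, as were those of Bcl2 and Saa3, with adjusted p-values from 0.061 (Lurap1) to 0.445 (Cr2). Hspa5 rose under LPS (0.50) and did not pass the test under IL-4+anti-CD40 (0.076), a difference of -0.42 ± 0.068 (adjusted p = 2.35e-04).

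For several of the genes raised most the call of a difference between the stimuli rested on vehicle libraries 3 and 4. With all libraries the DSF effect was more negative under IL-4+anti-CD40 for Hspa1b (-3.27 ± 1.00), Hspa1a (-3.24 ± 0.98), Hmox1 (-3.06 ± 0.82), Efr3b (-3.04 ± 0.78) and Hfm1 (-3.00 ± 0.97), with adjusted p-values of 0.0316, 0.0308, 0.0149, 0.0117 and 0.0443. Without vehicle libraries 3 and 4 the differences were 0.26, 0.18, -0.20, -0.89 and 0.96, none past the threshold (adjusted p = 0.637, 0.768, 0.511, 0.341 and 0.66). Leaving out vehicle library 4 alone gave -1.65 for Hspa1b, -1.61 for Hspa1a, -2.11 for Hmox1, -1.75 for Efr3b and -1.94 for Hfm1. The calls of Hfm1 were lost on leaving out any library but vehicle 1 or 2 of IL-4+anti-CD40, and those of Hspa1a and Hspa1b on leaving out IL-4+anti-CD40 vehicle library 4, IL-4+anti-CD40 DSF library 1, 2 or 3, LPS vehicle library 1 or 2, or LPS DSF library 3, and for Hspa1b also LPS DSF library 4. With all 20 samples in one fit the calls of Hspa1b, Hspa1a, Hfm1 and Hmox1 were lost as well. The other 15 of the 20 genes followed up for a difference kept their call without vehicle libraries 3 and 4. Bag3, also among the genes raised most, went from -0.95 (adjusted p = 0.026) to -0.41 (adjusted p = 0.205) without these libraries. Gpat3 went the other way, from -0.19 (adjusted p = 0.826) to 1.37 (adjusted p = 7.42e-05).

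**Figure D4:**
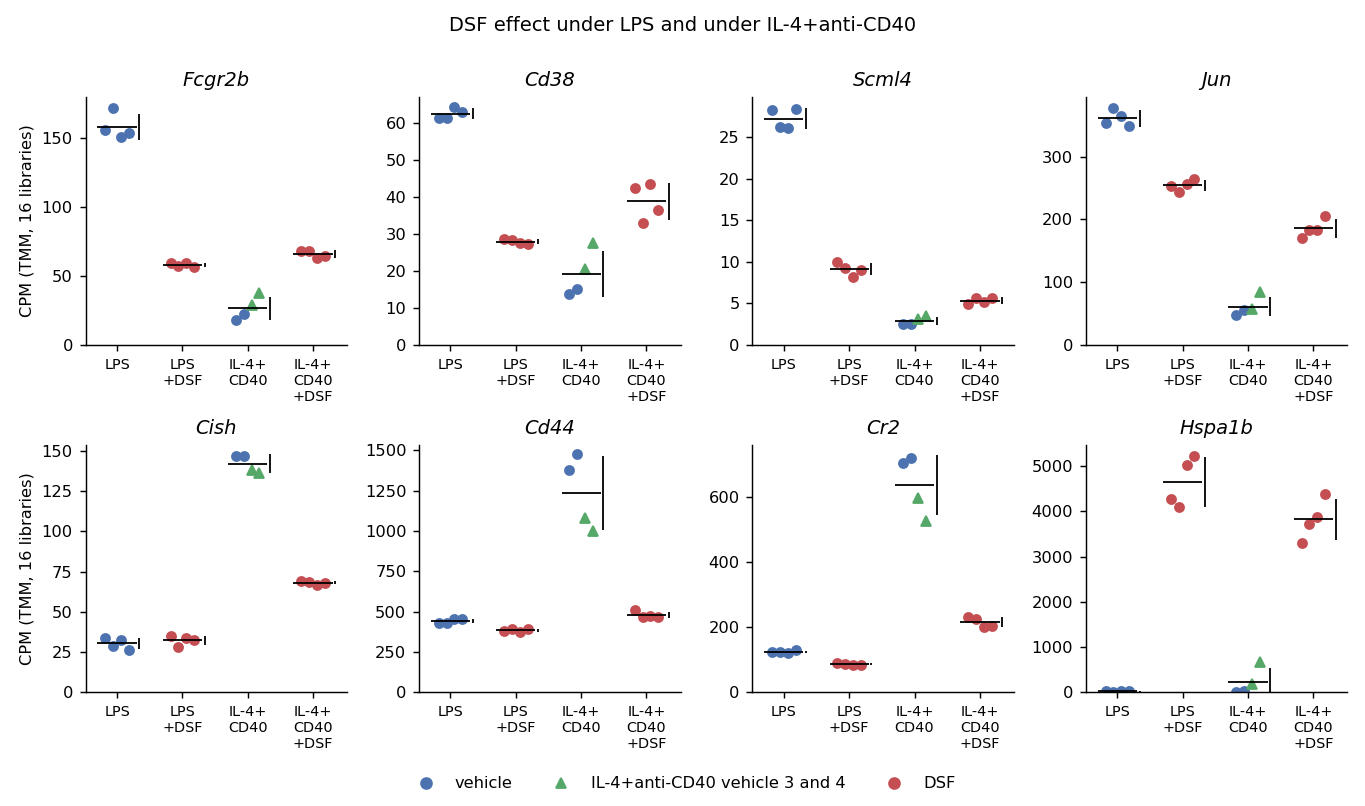
TMM-normalized CPM of 8 genes in the 16 libraries of both stimuli, on linear axes from 0, with vehicle in blue, IL-4+anti-CD40 vehicle 3 and 4 as green triangles and DSF in red, the group mean as a horizontal line and the SD beside it as a vertical bar cut off at 0. Fcgr2b, Cd38, Scml4 and Jun fall under LPS and rise under IL-4+anti-CD40, Cd44 and Cr2 fall by more under IL-4+anti-CD40, and Hspa1b is higher in IL-4+anti-CD40 vehicle 3 and 4 than in the other vehicle libraries.

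The second experiment held 1 DSF and 1 vehicle library with IL-4+anti-CD40, of 16049295 and 17602312 counts, so it gives directions without a test. Of 14275 genes averaging 10 counts or more over its 7 libraries, 2828 (19.8%) were 2-fold or more higher and 3268 (22.9%) 2-fold or more lower with DSF. Of 4207 genes raised in the first experiment and measured here 90.2% were higher, with a median log2 ratio of 0.932, and of 4441 lowered genes 95.7% were lower, with a median of -1.13. The 5069 genes not called in the first experiment were higher in 45% and lower in 55%.

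The leading stress genes were again higher with DSF. Hspa1b had 146 counts with vehicle and 169724 with DSF (log2 ratio 10.44), Hspb1 35 and 2353 (6.27), Mt1 60 and 2587 (5.66) and P2rx7 7 and 1489 (7.67). Efr3b had 0 counts with vehicle and 669 with DSF. Hmox1 had 996 counts with vehicle and 23288 with DSF (4.82). Of the 20 HSF1 chaperones 16 were 2-fold or more higher (median 2.17), and of 23 NRF2 targets 10 were 2-fold or more higher and 4 were 2-fold or more lower (median 0.74).

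Activation and growth genes were again lower. Il2ra went from 6080 to 176 counts (-4.82), Bcl2l1 from 3322 to 190 (-3.84), Ccnd2 from 32710 to 2258 (-3.58) and Tnfaip3 from 15598 to 3564 (-1.86). Median log2 ratios were -1.02 for the 26 CD40 and NF-κB targets, -1.55 for purine synthesis, -1.16 for cholesterol synthesis and -1.18 for the mitochondrial ribosomal proteins, against -0.131 over the 13717 genes measured in both experiments. The proteasome went the other way: its 32 subunits had a median of -0.32 here and 0.38 in the first experiment. Medians also differed in sign for cytokines and chemokines (-0.24 here and 0.41 in the first experiment) and MHC class II genes (-0.47 and 0.050). For the endoplasmic reticulum genes they were -0.097 and 0.0037. Klf2 was higher here (0.46) and lower there, and Bcl2 was about level (-0.021).

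**Figure D5:**
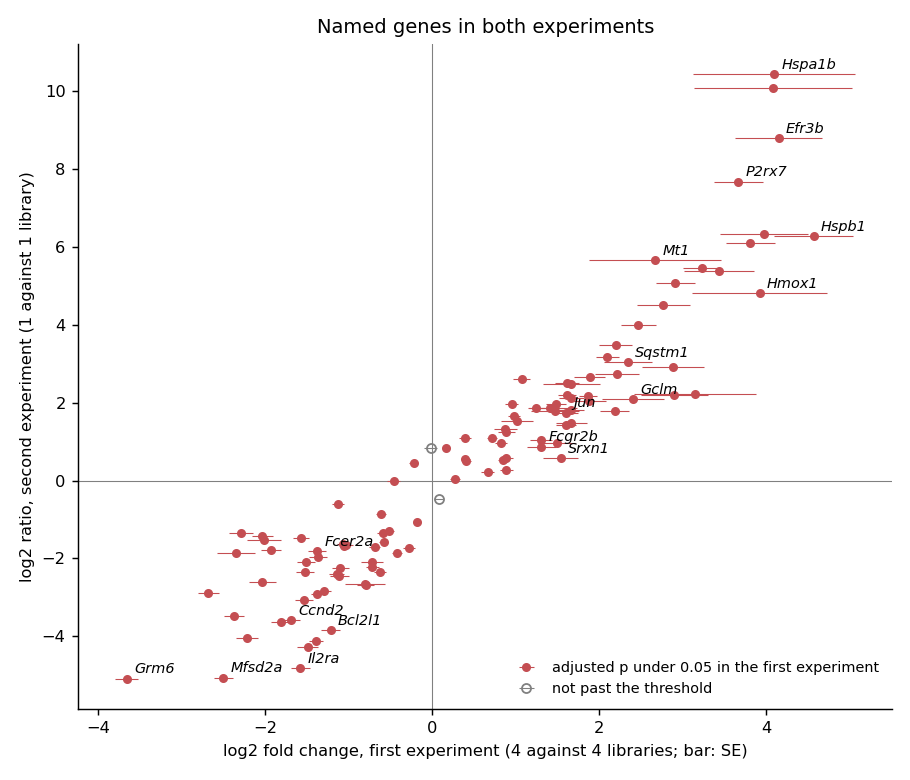
Log2 fold change in the first experiment (horizontal, 4 DSF against 4 vehicle libraries, bars show the SE) and log2 ratio in the second experiment (vertical, 1 library against 1, prior count 2) for the genes given by name, with filled points past an adjusted p of 0.05 in the first experiment and open points not past it. Most points lie in the lower left and upper right, and the highest, such as Hspa1b at 10.44, are above the range of the first experiment. Efr3b had 0 counts with vehicle in the second experiment, so its height depends on the prior count.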

How the data were processed

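RNA was extracted from B cells of the first experiment (8 libraries under LPS and 8 under IL-4+anti-CD40) and of the second experiment, and mRNA was enriched by poly(A) selection. As the methods and the submitters' processing notes give it, the authors trimmed reads with Fastp, aligned them to mm10 with HISAT2 v2.0.5 and counted them per gene with featureCounts v1.5.0-p3. The deposited counts are raw, and the deposited FPKM, which divide by gene length and depth, were used only to compare levels between genes. The strand setting of the counting is not given in the sources used here. Total counts per library were 17804851 to 23632992, which sets the precision for low genes.

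Libraries were grouped by their labels. Counts were filtered (filterByExpr), normalized (TMM) and tested with edgeR 4.0.16 (quasi-likelihood, R 4.3.3) over the 8 libraries, with Benjamini-Hochberg adjustment at 0.05. The difference from LPS was an interaction over 16 libraries. The second experiment, with 1 library a group, gave a log2 ratio (prior count 2) without a test. The procedure was tested on simulated data. DESeq2 1.42.0, other scalings and filters, a replicate block, all 20 samples in one fit, vehicle libraries 1 and 2 or 3 and 4 only and the removal of each library were tried. Replicate numbers were not taken as a pairing of the samples.

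The members and the 45 gene lists were chosen with earlier results of these data known. The genes given by name are the 10 protein-coding genes outside pyrimidine metabolism with the largest rise and the 10 with the largest fall among called genes without overlap and with 100 counts or more in all libraries of the higher group, list members, and the genes with the largest difference between the stimuli. Some list members were left out, and genes given only as exceptions to a list's count were chosen after their values were seen. Some genes are not reported here.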

Additional observations from a re-analysis of the deposited data

Results flagged for a closer look

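In 7 of the 220 groups of 4 libraries examined, 1 library stood apart from the other 3 by Dixon's criterion at the 95% level, and chance alone gives about 1 in 20. Vehicle library 4 was apart at 243 CPM for Hspe1 and 69.1 CPM for Hsd17b7. Of the DSF libraries, number 1 was apart for Hsd17b7 (34.5 CPM), number 3 for Grm6 (3.47 CPM) and Fcer2a (1021 CPM), and number 4 for Cxcr4 (550.0 CPM) and Bcl2l11 (618 CPM).

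The DSF effect differed between IL-4+anti-CD40 and LPS, tested as the interaction in edgeR's quasi-likelihood fit, for all 20 genes followed up for it. Among them are the 5 genes of each sign picked for the largest difference past the threshold, so their passing was fixed by the choice. Over all 15130 genes tested 6.96% had a more positive and 7.92% a more negative effect with IL-4+anti-CD40. Other genes given by name passed the same test and are not listed. Among them were Bag3 (-0.95, adjusted p = 0.026), Vegfa (-1.17, adjusted p = 1.99e-06) and Bach2 (0.54, adjusted p = 3.93e-05). In the list of 20, larger and smaller differences are given by sign. Of the 20 genes, the DSF effect was more positive on the log2 scale with IL-4+anti-CD40 for Fcgr2b (2.76), Scml4 (2.46), Ptges (2.29), Saa3 (2.18), Cd38 (2.18), Jun (2.11), Bcl2 (1.04) and Cd79a (0.65). It was more negative for Hspa5 (-0.42), Fcer2a (-0.99), Cr2 (-1.04), Ighg1 (-1.14), Cish (-1.14), Cd44 (-1.17), Lurap1 (-2.15), Hfm1 (-3.00), Efr3b (-3.04), Hmox1 (-3.06), Hspa1a (-3.24) and Hspa1b (-3.27). For Hfm1, Efr3b, Hmox1, Hspa1a and Hspa1b the call was lost without vehicle libraries 3 and 4.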

How the results depend on the processing

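The counts of raised and lowered genes (4301 and 4514) stayed within 1.5 times under other normalizations, filters, tools and vehicle choices. A minimum absolute log2 fold change of 1 left 1369 raised and 705 lowered genes. Leaving out 1 library gave 3988 to 4424 raised and 4130 to 4543 lowered genes. The genes with a more positive effect than under LPS ranged from 884 to 1268 and those with a more negative one from 954 to 1261, and a fit of all 20 samples gave 205 of the latter and lost 10 of the 20 calls of single genes for that difference. In the second experiment a mean of at least 50 counts left 1691 genes 2-fold or more higher. The cause of these changes was not tested beyond the smaller number of genes that the stricter limits leave.

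To look for a pairing, the mean of its group was taken off each gene's log2 CPM. The remaining deviations of equally numbered vehicle and DSF libraries correlated at 0.26, -0.03, -0.041 and 0.25, so the numbers were not taken as a pairing. By this measure DSF libraries 1 and 4 were closest to the vehicle library of their own number, and DSF libraries 2 and 3 to vehicle libraries 3 and 4. Whether the numbers pair the samples is therefore not known. With a replicate block 4155 genes rose and 4310 fell, 1025 and 1134 genes differed between the stimuli, and the interaction calls of Hspa1b, Hspa1a, Hfm1 and Saa3 were lost.

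Of 1977 values of single genes for the DSF effect, 1927 kept direction and call, 39 lost the call, 3 gained it and 8 reversed. With all 20 samples in one fit the calls of Srxn1, Aldh2, Traf1, Cd86, Vegfa, Klf2 and Bcl2 were lost. The reversals were in genes without a call. Hspa5 went to -0.073 with total counts. Egr1 went to 0.011 with at least 10 counts in every sample, 0.041 with all 20 samples and 0.075 with vehicle libraries 1 and 2, and ranged from -0.092 to 0.014 on leaving out 1 library, above 0 without vehicle library 2, 3 or 4 or DSF library 2 (0.0036, 0.013, 0.0035 and 0.014). Of 420 values for the difference between the stimuli, 361 kept direction and call, 56 lost it and 3 reversed, all without vehicle libraries 3 and 4: Hspa1b (0.26), Hspa1a (0.18) and Hfm1 (0.96). The depth limits genes near 0 counts with vehicle, such as Hfm1.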
